A study of Drosophila melanogaster with 3 samples.

Results

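Aminoacyl-tRNA synthetases are the enzymes that join each amino acid to its matching transfer RNA (tRNA), so every cell that makes protein needs them. They fall into class I and class II, which differ in the fold of the catalytic domain. Most animals carry 1 nuclear gene for the cytosolic enzyme of an amino acid and often another for the enzyme that is imported into mitochondria. The genes examined here were all protein-coding genes whose symbol is an amino acid's 3-letter name, or GluPro, followed by RS, with or without the ending -m. The rule found 33 of 13945 protein-coding genes on the arms 2L, 2R, 3L, 3R, 4 and X. Of these, 18 had no ending (cytosolic-named here) and 15 had the ending -m (mitochondrial-named). The label held for all of them: the RefSeq product of 33 of 33 is a tRNA synthetase, and that of 15 of the 15 with the ending -m is mitochondrial.

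The assay was chromatin immunoprecipitation with sequencing (ChIP-seq), and its target was Senseless, a zinc finger transcription factor known for its role in sensory organ precursors, in whole Drosophila melanogaster embryos. The single group, of strain sens-GFP, held 3 biological replicates of mixed-sex embryos aged 4 to 14 hours, from a transgenic line with GFP fused to the C-terminus of sens, precipitated through GFP. No other strain, treatment or untagged line was among the samples, so no contrast between conditions could be made. Chromatin came from all cells of the embryo together, so a peak in few cells and a weak peak in many cannot be told apart. The labels do not say whether the replicates are separate collections beyond calling them biological.

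A threshold on the irreproducible discovery rate (IDR), which keeps peaks that rank alike in replicates, left 3811 peaks on the dm6 build in the authors' list. They are called reproducible here and are exactly the 3811 strongest of the 28357 peaks called on the pooled replicates. The lists of replicates 1, 2 and 3 hold 30000, 30000 and 27681 peaks. Each peak has a summit, its point of highest signal, and a signal value, the authors' score on a scale that is not stated. The signal is used only to rank peaks within a list, with rank 1 the strongest. A summit within 500 bp of an annotated transcript start of the gene is called an own-start summit.

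Senseless-GFP gave a reproducible own-start summit at 10 of the 33 synthetase genes (30.3%), against 16.4% of all protein-coding genes. The 10 were SerRS, IleRS, GluProRS, ArgRS, ThrRS, PheRS-m, AspRS, AsnRS, ArgRS-m and AlaRS, in order of signal. Their ranks ran from 401 to 3717 of 3811, with a median of 1558, and the median over the 2287 protein-coding genes with such a summit was 1742. Their peaks thus ran over nearly the whole list, from SerRS near its top to AlaRS near its end. Without replicate 1, that is with only summits among the strongest 3811 peaks of replicates 2 and 3, the count was 6 of 33 (18.2%), against 12.4% of all protein-coding genes. The median rank of these 6 was 966. The members left out, AspRS, AsnRS, ArgRS-m and AlaRS, had the lowest signals of the 10, with ranks from 2528 to 3717, so the median fell. The median over all genes was not computed under this filter. Where each replicate was limited to its own 3811 strongest peaks, own-start summits stood at 11, 10 and 7 of the 33 genes in replicates 1, 2 and 3. These are 28.3% ± 6.3 (SD, n = 3 replicates), against 16.4%, 16.6% and 15.9% of all protein-coding genes, 16.3% ± 0.37. The share was above that of all genes in each of the 3 replicates. No test was made of this difference, since genes are not replicates and the members were chosen with earlier results of these data known.

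More cytosolic-named than mitochondrial-named genes carried such a summit, a difference that was not tested. A reproducible own-start summit was found at 8 of 18 cytosolic-named genes (44.4%) and at 2 of 15 mitochondrial-named genes (13.3%), which is near the 16.4% of all genes. In the replicates' own 3811 strongest peaks the counts were 8, 8 and 5 of 18 cytosolic-named genes and 3, 2 and 2 of 15 mitochondrial-named genes. As shares these are 38.9% ± 9.6 and 15.6% ± 3.8 (SD, n = 3 replicates), and the lowest cytosolic-named share, 27.8% in replicate 3, lay above the highest mitochondrial-named one, 3 of 15 in replicate 1. Without replicate 1 or without replicate 2 the cytosolic-named count was 5 of 18, and without replicate 1 or without replicate 3 the mitochondrial-named count was 1 of 15. The plot of shares sets both kinds beside all protein-coding genes.

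**Figure D1:**
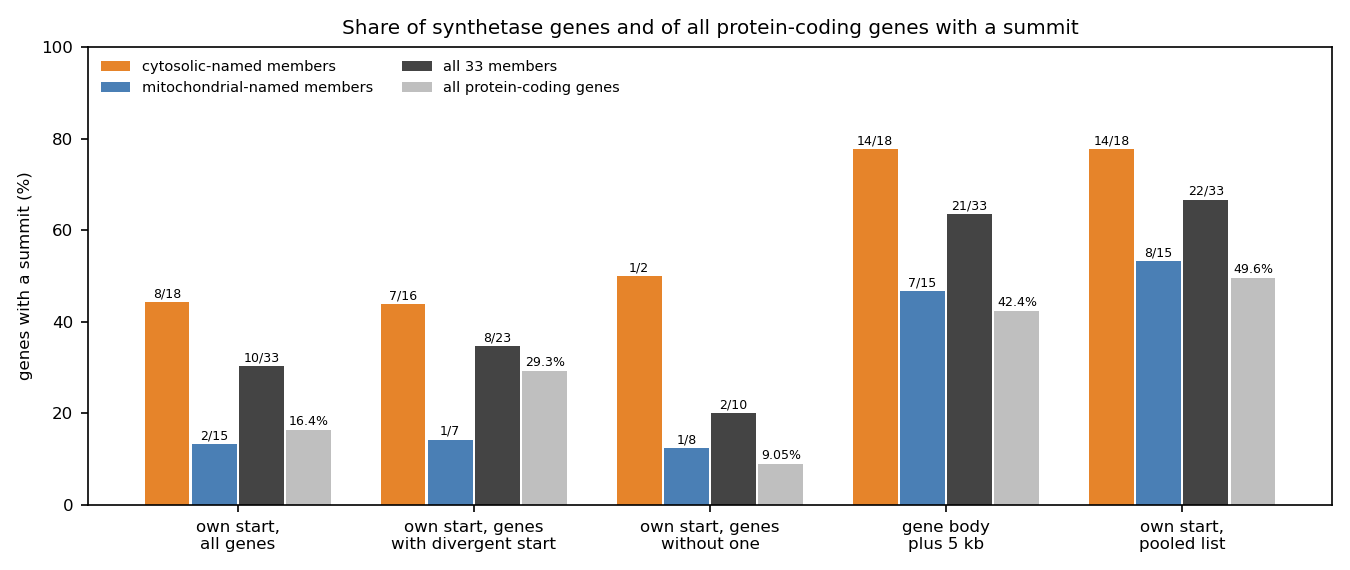
Bars give the percentage of genes with a summit by each definition on the horizontal axis, for cytosolic-named, mitochondrial-named and all 33 synthetase genes, with counts above them, and for all protein-coding genes, with the percentage above. At own starts 8 of 18 cytosolic-named and 2 of 15 mitochondrial-named genes had a reproducible summit, beside 16.4% of all genes.

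The strongest peak lay at SerRS, which charges the serine tRNAs (2L, 3035493 to 3037403, minus strand, dm6). Its summit at 3037391 was 12 bp inside the gene, in its 5' UTR, with a signal of 499.6 and rank 401. SerRS ranked 453, 477 and 327 in replicates 1, 2 and 3, with signals of 131, 194 and 169. All 3 replicates placed it high in their lists, although the summit of replicate 3 lay 88 bp from the reproducible one. The start of CG17260, on the other strand, was 20 bp from the summit, so the same peak covers both starts.

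IleRS, which charges the isoleucine tRNAs (3L, 22288665 to 22292810, plus strand), had its summit at 22288509, between genes and 156 bp upstream of its start. The signal was 461 and the rank 476. In replicates 1, 2 and 3 IleRS ranked 377, 611 and 497, with summits 0, 14 and 34 bp from the reproducible one. The replicates placed this peak at nearly the same point and high in each list. The start of Hem, which encodes a subunit of the actin-regulating WAVE complex, faced away from IleRS at 470 bp.

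GluProRS encodes a single protein that charges both glutamate and proline tRNAs and so belongs to both classes (3R, 23952136 to 23958391, minus strand). It was the only member with 2 reproducible own-start summits. The stronger, at 23958468, lay 77 bp upstream of a GluProRS start with a signal of 355 and rank 810. The weaker, at 23958677 with rank 2149, lay in the 5' UTR of AP-1sigma, an adaptor subunit of clathrin-coated vesicles, and was nearer to that gene's start (26 bp) than to GluProRS (286 bp). The strongest own-start peak of GluProRS ranked 877, 953 and 903 in replicates 1, 2 and 3. These ranks are close together, while the summits lay 61, 0 and 57 bp from the reproducible one.

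ArgRS, the cytosolic arginine enzyme (X, 15841769 to 15844145, minus strand), had a summit at 15844331, between genes, 186 bp upstream of its start and 145 bp from that of CG8578 on the other strand. Its signal was 294 and its rank 1122. ArgRS ranked 1429, 1162 and 1075 in replicates 1, 2 and 3. ThrRS, the threonine enzyme (2L, 12103751 to 12107170, plus strand), had its summit at 12103605, 146 bp upstream, with a signal of 287 and rank 1180. ThrRS ranked 1652, 1089 and 1482 in replicates 1, 2 and 3, with summits at most 3 bp from the reproducible one. Both peaks stood among the 3811 strongest of every replicate.

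AsnRS, the asparagine enzyme (2L, 19129469 to 19131954, minus strand), had its summit at 19132100, 146 bp upstream and 223 bp from the start of DCTN6-p27, a dynactin subunit gene. Its signal was 179 and its rank 2629. AsnRS ranked 3343, 1710 and 4229 in replicates 1, 2 and 3, so it fell outside the strongest 3811 of replicate 3. AlaRS, the cytosolic alanine enzyme (2L, 8378262 to 8381764, minus strand), had its summit at 8381776, 12 bp upstream, with rank 3717. AlaRS ranked 2426, 3704 and 6516 in replicates 1, 2 and 3, the last again well below the others.

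Summit windows of 6 of the marked genes are printed to let the base composition under these peaks be seen, 5′ to 3′ on the gene's own strand. Base 51 of each 101-base window is the summit. For SerRS, where the summit lies in a UTR, only 30 bases are shown. Capitals mark matches, on either strand, to AAATCA (the core of the Senseless site) or TATAAA (a core promoter element), the only ones of 8 searched motifs found in these windows. The SerRS fragment held none, but the full 101-base window around its summit, not printed, held TATAAA.
SerRS, chr2L:3037377-3037406, minus strand: cttatgggaaataactaaacagaaaatata
IleRS, chr3L:22288459-22288559, plus strand: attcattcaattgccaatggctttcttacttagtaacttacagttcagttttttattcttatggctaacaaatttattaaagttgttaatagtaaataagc
GluProRS, chr3R:23958418-23958518, minus strand: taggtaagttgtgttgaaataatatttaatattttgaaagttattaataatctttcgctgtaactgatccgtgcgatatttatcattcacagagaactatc
ArgRS, chrX:15844281-15844381, minus strand: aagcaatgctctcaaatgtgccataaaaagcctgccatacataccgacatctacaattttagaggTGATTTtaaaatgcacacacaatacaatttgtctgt
ThrRS, chr2L:12103555-12103655, plus strand: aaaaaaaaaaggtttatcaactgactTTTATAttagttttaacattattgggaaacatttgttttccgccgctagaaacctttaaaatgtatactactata
AsnRS, chr2L:19132050-19132150, minus strand: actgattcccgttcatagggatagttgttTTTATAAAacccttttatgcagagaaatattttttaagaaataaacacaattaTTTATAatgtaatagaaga
The windows are rich in A and T. GC content was 25.7% in IleRS and ThrRS, 27.7% in GluProRS, 24.8% in AsnRS and 35.6% in ArgRS.

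LeuRS and TrpRS are shown for comparison, as cytosolic-named genes without any pooled peak at an own start. The 101 bases that end just before each gene's start are printed, in the same direction. Capitals mark TATAAA in LeuRS and TATCGATA, the DNA replication-related element (DRE) of many housekeeping promoters, in TrpRS.
LeuRS, chr2L:3514657-3514757, minus strand: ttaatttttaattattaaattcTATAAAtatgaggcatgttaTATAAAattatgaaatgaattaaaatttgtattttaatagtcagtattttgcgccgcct
TrpRS, chr3R:9266905-9267005, minus strand: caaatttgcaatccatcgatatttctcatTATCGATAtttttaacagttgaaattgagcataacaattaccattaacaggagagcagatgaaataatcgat
GC content was 19.8% in the LeuRS window and 29.7% in the TrpRS window. LeuRS had no own-start peak in any dm6 list, whereas TrpRS had weak ones in replicates 1 and 2, at ranks 10292 and 6460.

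The plot of summit positions shows how the summits of the 10 marked genes lie around their starts. Of their strongest summits, 9 of 10 were upstream of the start, as were 86.7% of those of all 2287 marked protein-coding genes. The distances ran from 12 to 186 bp, with a median of 107.5 bp. The summits of single replicates lay between 0 and 205 bp from the reproducible summit, with a median of 8.5 bp over the 30 values. The largest shift, 205 bp, was that of AspRS in replicate 3. No other member had a reproducible summit between 186 and 500 bp of an own start as its strongest. The summit nearest to the limit from inside was the weaker one of GluProRS at 286 bp, and the nearest from outside that of ValRS at 528 bp, with rank 3363.

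**Figure D2:**
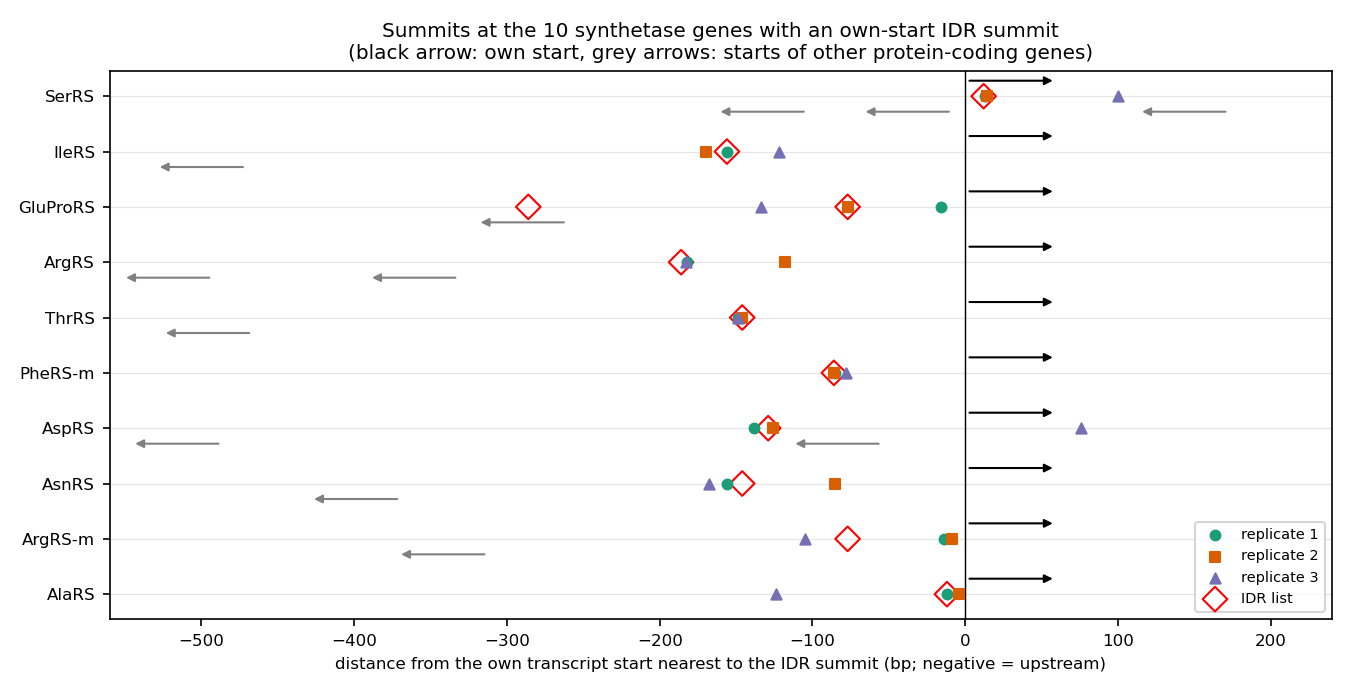
The horizontal axis gives the distance in bp from the own start nearest to the reproducible summit, negative upstream, for the 10 synthetase genes with a reproducible own-start summit (rows, strongest at the top). Red diamonds are reproducible summits, the other symbols the strongest own-start summit of each replicate, black arrows the own start and grey arrows starts of other protein-coding genes; 9 of the 10 strongest summits lie upstream.

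On 2R, AspRS and PheRS-m were marked. AspRS, the cytosolic aspartate enzyme (12877004 to 12883168, plus strand), has 3 annotated starts, and its summit at 12880155 lay in an intron of AspRS and in the 5' UTR of Nmda1, 129 bp upstream of an internal start. The start of Nmda1, on the other strand, was nearer at 75 bp. The AspRS peak had a signal of 183 and rank 2528, and it ranked 1748, 2252 and 7832 in replicates 1, 2 and 3. Replicate 3 thus placed it far lower than the other replicates did. With the 5'-most start of each gene alone, AspRS was not counted and 9 of 33 genes were marked.

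PheRS-m, the mitochondrial phenylalanine enzyme (2R, 13968308 to 13969902, plus strand), was the strongest of the mitochondrial-named genes. Its summit at 13968222 lay 86 bp upstream with a signal of 217 and rank 1936. PheRS-m ranked 1408, 2495 and 2288 in replicates 1, 2 and 3, with summits 1, 0 and 8 bp from the reproducible one. No start of another protein-coding gene lay within 1 kb of this summit, unlike at the other 9 marked genes. ArgRS-m, the mitochondrial arginine enzyme (3R, 7887045 to 7890150, plus strand), had the other summit, at 7886968, 77 bp upstream, with a signal of 143 and rank 3714, near the end of the list. ArgRS-m ranked 3126, 5667 and 3475 in replicates 1, 2 and 3.

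Of the 10 marked genes, 6 (SerRS, IleRS, GluProRS, ArgRS, ThrRS and PheRS-m) had an own-start summit among the 3811 strongest peaks of all 3 replicates. Over all 2287 marked protein-coding genes the share was 66.7%. AsnRS, AspRS and AlaRS missed it in replicate 3 alone and ArgRS-m in replicate 2 alone.

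**Figure D3:**
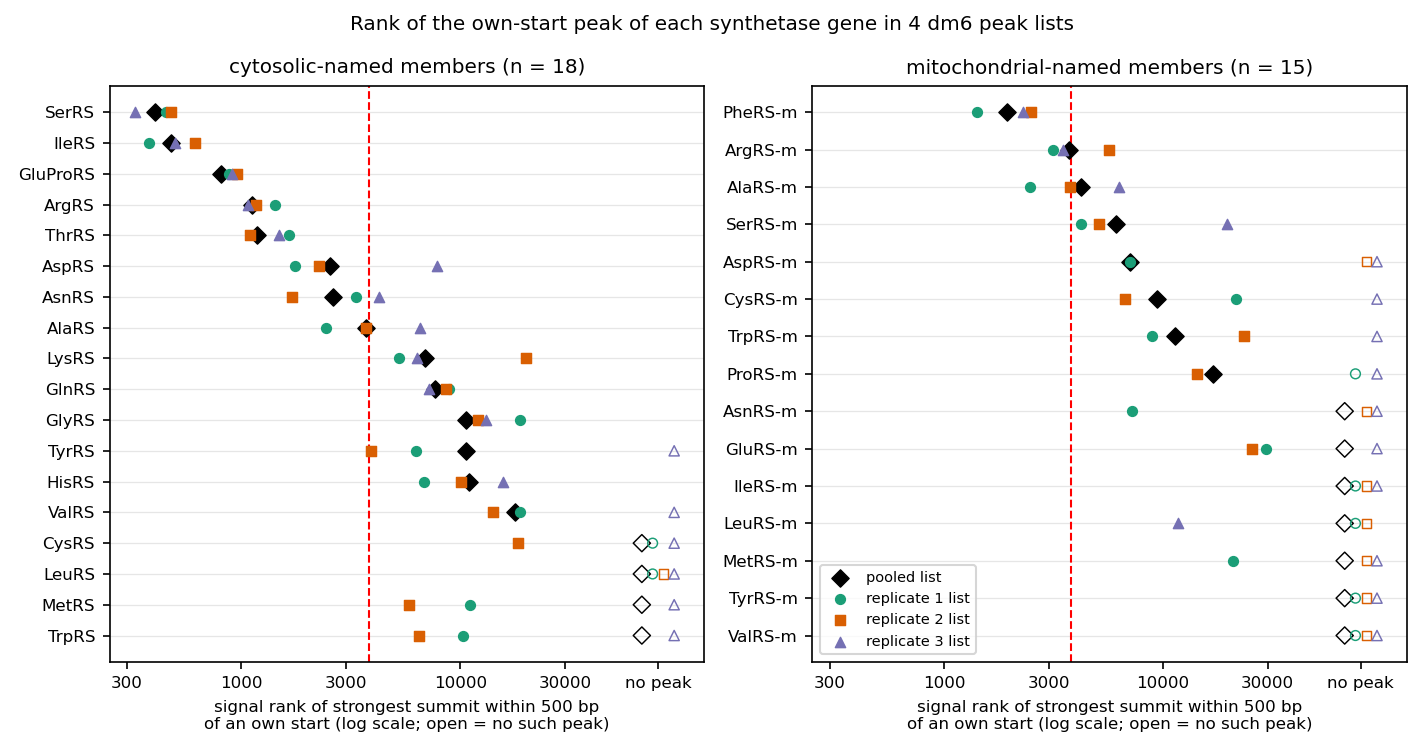
Each row is a synthetase gene, cytosolic-named on the left and mitochondrial-named on the right, and the horizontal axis gives the rank, on a log scale, of its strongest own-start peak in the pooled list and in the list of each replicate. Open symbols mark lists without such a peak and the red dashed line the length of the reproducible list, 3811 peaks; SerRS, IleRS and GluProRS lie far to the left of it in every list.

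For 12 amino acids the rule found a gene of each kind, so that enzymes for the same amino acid could be set side by side. Arginine alone had both genes marked. For alanine, asparagine, aspartate, isoleucine and serine (5 of 12) the cytosolic-named gene was marked and the mitochondrial-named one was not. The reverse was found for 0 of 12, and neither gene was marked for the remaining 6, cysteine, leucine, methionine, tryptophan, tyrosine and valine. The isoleucine pair was far apart: IleRS stood at 476 and IleRS-m had no own-start peak in any of the deposited dm6 lists. The pair for alanine was close: AlaRS, at 3717, was inside the reproducible list and AlaRS-m, at 4205 of the pooled list, just outside. AlaRS-m ranked 2458, 3746 and 6298 in replicates 1, 2 and 3, much as AlaRS did. By class of fold, 3 of 18 class I genes and 6 of 14 class II genes were marked, besides GluProRS, against 16.4% of all protein-coding genes. The difference between the classes was not tested.

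A divergent start is that of another protein-coding gene on the other strand at most 1 kb upstream of an own start. It was present at 8 of the 10 marked genes, all but AlaRS and PheRS-m, and at 23 of all 33 members (69.7%). Among members it was present at 16 of 18 cytosolic-named genes (88.9%) and 7 of 15 mitochondrial-named genes (46.7%). Over all protein-coding genes, 36.2% had one. Of the 23 members with a divergent start 8 were marked (34.8%), against 29.3% of all protein-coding genes with one. Of the 10 members without one 2 were marked, against 9.05% of all protein-coding genes without one. Among members with a divergent start, 7 of 16 cytosolic-named and 1 of 7 mitochondrial-named genes were marked. Among members without one, 1 of 2 cytosolic-named and 1 of 8 mitochondrial-named genes were marked. These groups are too small for the shares with and without a divergent start to be compared within a kind. The part that gene arrangement has in the difference between the kinds was not tested.

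Because divergent starts share a peak, a summit near a synthetase start need not be nearest to it. The own start was the nearest start of any protein-coding gene at 8 of the 10 marked genes, which is 24.2% of all members, against 12.0% of all protein-coding genes. Without replicate 1 this count was 5, and in replicate 3 alone it was also 5. The share of all protein-coding genes was not counted under either setting, so these counts cannot be set against the 12.0%. Among the 10 marked genes the exceptions were AspRS and ArgRS, whose summits lay nearer to Nmda1 and CG8578. Of the partners, CG17260, Hem, Patsas, DCTN6-p27, CG17816 and AP-1sigma stood farther from the strongest summit than the synthetase start did. The margin was smallest at SerRS, whose start lay 12 bp from the summit and that of CG17260 20 bp. The summit of replicate 3 there lay 88 bp from the reproducible one. Such a peak cannot be told apart as belonging to either gene of the pair.

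Of the 23 members without a reproducible own-start summit, 12 had a weaker own-start peak in the pooled list, ranked from 4205 to 17719 of 28357 with a median of 9978. In all, 22 of the 33 members (66.7%) had an own-start peak in the pooled list, against 49.6% of all protein-coding genes. The 12 were, by pooled rank, AlaRS-m, SerRS-m (6067), LysRS (6932), AspRS-m (7060), GlnRS (7689), CysRS-m (9340), GlyRS (10616), TyrRS (10652), HisRS (10908), TrpRS-m (11353), ProRS-m (16893) and ValRS (17719). SerRS-m, the mitochondrial serine enzyme, ranked 4232, 5079 and 19516 in replicates 1, 2 and 3. LysRS and GlyRS, the lysine and glycine enzymes, are known in humans to serve cytosol and mitochondria from a single gene. LysRS ranked 5226, 19984 and 6367 and GlyRS 18649, 12064 and 13145 in replicates 1, 2 and 3, in each case well below the reproducible list. GlnRS, the glutamine enzyme, was steadier, at 8882, 8644 and 7221.

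For a further 7 members an own-start peak was called in replicate lists and not in the pooled list. These were TrpRS, MetRS, CysRS, AsnRS-m, MetRS-m, GluRS-m and LeuRS-m, and their best rank was 5833, of MetRS in replicate 2. The remaining 4, LeuRS, TyrRS-m, ValRS-m and IleRS-m, had no own-start peak in any of the deposited dm6 lists. At the depth of these lists, which is unknown, that says only that no peak was called there. Own-start peaks in the whole lists were found at 26, 25 and 17 members in replicates 1, 2 and 3. These are 78.8%, 75.8% and 51.5%, against 50.8%, 51.2% and 47.2% of all protein-coding genes. In replicate 3 the share was thus near that of all genes.

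Counting the gene body and 5 kb on each side, 21 of 33 members (63.6%) had a reproducible summit, against 42.4% of all protein-coding genes. By kind these were 14 of 18 cytosolic-named and 7 of 15 mitochondrial-named genes. Members had from 0 to 3 summits in that territory: 12 had 0, 10 had 1, 9 had 2, and AlaRS and AsnRS had 3. The members were longer, with a median of 2760 bp against 2166 bp for all protein-coding genes, and the part of length in this count was not tested. Of the 23 members without an own-start summit, 11 had a summit in the territory.

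Many of the further summits lay at starts of neighbours. Without the summits within 500 bp of a start of any protein-coding gene, the territory count was 2 of 33, LeuRS-m and GlyRS, against 15.7% of all protein-coding genes under the same filter. The strongest peak in any territory had rank 131; it lay 6901 bp from the start of GlnRS and 78 bp from that of CG11857. In the territory of AlaRS, the peak of rank 202 lay 87 bp from the start of CG13390. In that of CysRS-m, the mitochondrial cysteine enzyme, the peak of rank 393 lay 117 bp from the start of CG13018. IleRS-m had a peak of rank 502, 83 bp from the start of IntS9, which encodes a subunit of the Integrator complex. The summit 528 bp upstream of ValRS, the valine enzyme, lay in the 5' UTR of Kdm4B, a histone demethylase gene, 15 bp from its start. The summit of rank 546 that lay 811 bp upstream of LeuRS-m was in an intron of Dhc64C, the dynein heavy chain gene. GluRS-m and TyrRS, which follow each other on the minus strand of 3L, share a summit of rank 2903 in their territories, 32 bp from the start of Serinc.

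The sequence under the members' summits was low in GC. Within 50 bp of the strongest own-start summit the GC content was 31.4% ± 7.1 (SD, n = 10 genes), and in windows of the same size centred 500 bp to each side it was 50.4% ± 7.4. Over the 1741 reproducible summits within 500 bp of any protein-coding start, the values were 35.2% ± 9.5 at the summit and 45.4% ± 8.1 in the flanks. The summit was lower in GC than its flanks at 9 of 10 members, ArgRS being level at 35.6% in each, and at 76.9% of the 1741. PheRS-m was the highest of the 10, at 46.5%. In the 101 bases before the 5'-most start, GC content was 40.4% ± 8.8 in the 10 marked members and 37.1% ± 11.5 in the 23 others, beside 41.2% ± 9.6 over all protein-coding genes. The marked members were not lower in GC there than the others. The 10 genes are members of 1 list and not replicates.

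**Figure D4:**
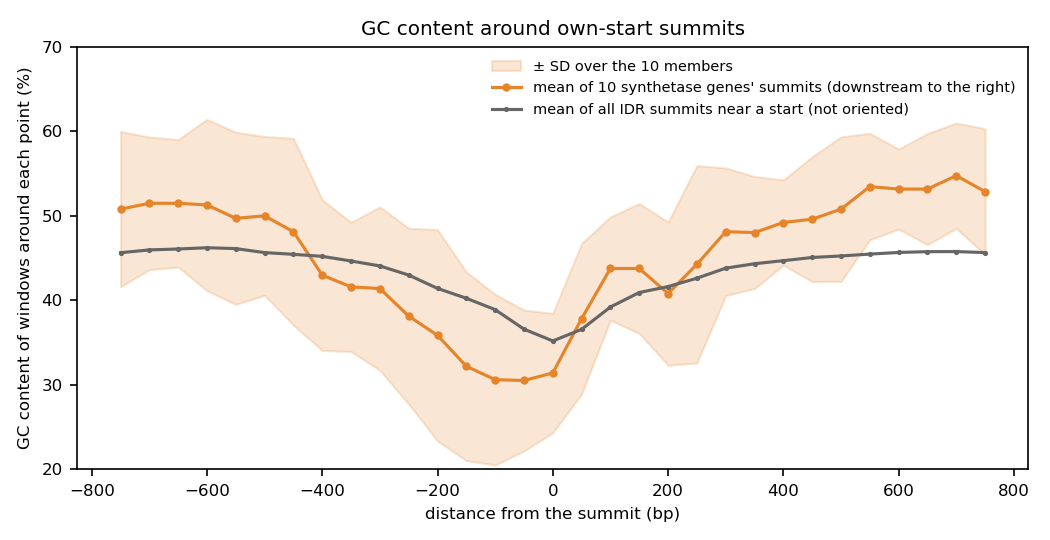
The vertical axis gives the GC content of 101-bp windows and the horizontal axis the distance of their centre from the summit in bp, for the 10 marked synthetase genes (orange mean, band ± SD over genes, each turned so that its gene runs to the right) and for all 1741 reproducible summits near a start (grey mean, not turned). The synthetase mean is 31.4% at the summit and 50.4% over the windows 500 bp to each side, and the grey mean 35.2% and 45.4%.

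Motifs were counted on both strands in the 300 bp from 250 bp before to 50 bp after the 5'-most start of each gene. The E-box CAGCTG, a recurrent element of housekeeping core promoters in flies, was present in 16 of 33 members (48.5%), against 17.7% of all protein-coding genes. It was present at 5 of the 10 marked members and 11 of the 23 others, beside 23.3% of all marked protein-coding genes. Of the 10 summit windows 0 held it, beside 4.71% of the 1741 promoter summits. The DRE, TATCGATA, was present in 5 of 33 members (15.2%), against 9.36% of all protein-coding genes and 14.9% of all marked ones. It was found in 4 of the 10 marked members (AlaRS, ArgRS, IleRS and PheRS-m) and in 1 of the 23 others (TrpRS). Of the 10 summit windows 1 held it, that of AlaRS, beside 4.19% of the 1741 promoter summits. The Senseless core AAATCA was found in 15 of 33 members (45.5%), against 33.5% of all genes, with 4 of the 10 marked members and 11 of the 23 others. Within 50 bp of the summit it was found at 1 of 10 members, ArgRS, against 13.8% of the 1741 promoter summits.

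GGTCACAC, from the housekeeping promoter element known as Motif 1, was in 4 of 33 members (12.1%), against 7.70% of all genes. It was present at 0 of the 10 marked members and 4 of the 23 others, beside 10.9% of all marked protein-coding genes. CACGTG, the E-box bound by Myc, was in 2 of 33 (6.06%), against 4.20%. AGATAA, the site of blood and gut factors such as Serpent, was in 5 of 33 (15.2%), against 18.7%. TATAAA was in 18 of 33 (54.5%), against 45.8%. Of the 10 summit windows 4 held it (AlaRS, AsnRS, SerRS and ThrRS), beside 20.4% of the 1741 promoter summits. TGATGNAAT, a site through which the stress factor ATF4 raises synthetase genes in mammals, was in 0 of 33 windows, against 1.23% of all genes. A match is only a run of letters in these windows, and matches to different motifs can overlap.

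Genes that work with the synthetases but fall outside the symbol rule were counted in the same way. Of 26 listed genes 24 were matched by symbol, and 7 of these (GatA, eEF1alpha1, eEF1gamma, eEF2, eEF5, Gcn2 and Thor) had a reproducible own-start summit, beside 16.4% of all protein-coding genes. The groups are small, and their counts are given as descriptions. None of alpha-PheRS, beta-PheRS (the subunits of the cytosolic phenylalanine enzyme) and Slimp, a relative of the mitochondrial serine enzyme, was marked. Slimp ranked highest of them in the pooled list, at 5025, and stood at 6338, 5531 and 4860 in replicates 1, 2 and 3. For beta-PheRS no pooled own-start peak was called, but it ranked 6743 in replicate 1 and 2761 in replicate 3, the last among that replicate's strongest 3811. Of the scaffold proteins AIMP1, AIMP2 and AIMP3, which hold several synthetases together in a complex in mammals, 0 of 3 was marked, and none had an own-start peak in the pooled list.

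Elongation factors bring charged tRNA to the ribosome and move it along. Of 7 cytosolic genes 4 had a reproducible own-start summit and eEF1alpha2, eEF1beta and eEF1delta had none, and of 4 matched mitochondrial genes 0 had one, beside the 16.4% of all protein-coding genes. The difference between the groups was not tested. The strongest was that of eEF1gamma, at rank 285 and 71 bp upstream, which ranked 272, 281 and 356 in replicates 1, 2 and 3. Next came eEF1alpha1 (rank 1602), which carries charged tRNA to the ribosome, eEF2 (rank 1634), which drives translocation, and eEF5 (rank 2361). GatA, a subunit of the amidotransferase that in mitochondria turns mischarged glutamate into glutamine on its tRNA, was marked at rank 2209, 120 bp upstream, whereas GatB and GatC were not. In the response to lack of amino acids, Gcn2, the kinase that senses uncharged tRNA, stood at rank 1244, and Thor, the inhibitor of eIF4E, at rank 1973. The gene crc, which encodes the fly ATF4, was at 6138 of the pooled list.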

How the data were processed

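Senseless-GFP ChIP-seq peaks came from 3 biological replicates. Per the labels' protocols chromatin was sonicated to 200 to 800 bp; the collection window was read from the sample's source description, since the age field holds no usable value. The deposited lists are in narrowPeak layout and their signal value is a score on no stated scale. Per the deposited text notes, peaks were called by the authors on each replicate and on the pooled replicates, with no control among the inputs named for dm6, although the labels name a possible control experiment; whether uneven chromatin recovery was subtracted is therefore unknown. The IDR list was derived from the replicate lists and the pooled list, per the same notes. Not given in the sources used here: aligner, caller and IDR threshold. Of the lists, 5 on dm6 were used and 5 on dm3 were not used. Depth is unknown, so no interval or floor is given.

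Summits are the peak start plus the deposited offset, written 1-based. Genes and starts came from Ensembl release 115 on the same assembly, sequence from RefSeq, and the names of products from RefSeq. Counts were made with Python 3.11.15 and NumPy 2.4.6, and the counting was tested on simulated data. Every member is named; the 8 strongest have full values, and pathway genes came from a list in which Mtfmt and mEFG2 had no match by symbol. The windows of the 2 unmarked genes were moved to leave out UTR. That of SerRS was only shortened to hold less of it, and 27 of its 30 bases lie in a UTR. The members, lists and motifs were chosen with earlier results of these data known, so shares are descriptions without tests. Alternatives changed windows, starts, territories, lists and replicates.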

Additional observations from a re-analysis of the deposited data

How the results depend on the processing

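The count of 10 marked members was 10 within 250 bp, 12 within 1000 bp, 9 with the 5'-most start, 11 by any overlap of the peak and 10 with PheRS subunits and Slimp added. In the stronger 50% of the list it was 5 (15.2%, against 8.77% of all genes) and in the whole pooled list 22 (66.7%, against 49.6%). Cytosolic-named genes were 5 and 14 there, mitochondrial-named genes 0 and 8, and genes whose own start was nearest 4 and 14. For own start nearest, and for the changed windows, starts, overlap and added genes, the share of all genes was not counted. Those counts describe the members alone.

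Leaving out a replicate kept only reproducible summits inside the strongest peaks of both others, so no count can exceed the one reported. Marked members then ranged from 6 (18.2%, against 12.4% of all genes, without replicate 1) to 9 (27.3%, against 12.4%, without replicate 3). Cytosolic-named ones ranged from 5 to 8, mitochondrial-named ones from 1 to 2, own start nearest from 5 to 7 and territories from 16 to 17. The members left out were each time among the weakest of those marked, so the median rank fell, to between 966 and 1180. The mean GC content ranged from 30.8% to 31.8%. Replicate 3 alone gave 5 cytosolic-named genes, 5 with the own start nearest and a median rank of 1075; replicates 1, 2 and 3 alone gave a GC content of 35.6%, 33.4% and 35.1%. GC content was 34.1% within 100 bp, 34.9% in the pooled list and 27.9% in the stronger 50%, where the median rank was 810 by construction. Territory counts were 11 in the stronger 50% and 2 without summits near any start, the latter against 15.7% of all genes. For the other territory counts and for own start nearest, the share of all genes was not counted under these alternatives. Causes of the other changes between alternatives were not tested. Of 73 alternatives for 7 results, 44 left the value within a factor of 1.5 for counts, or within 1 SD between the replicates taken alone for the median rank (292) and GC content (1.19 percentage points). No paired analysis was possible because the samples form 1 group. Unknown depth limits what an absent peak shows, and with 3 replicates of 1 line and no untagged sample, signal unrelated to Senseless could not be measured.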
